A study of Mus musculus with 10 samples.

Results

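Collagens are the main structural proteins of the extracellular matrix, and their genes were examined here in 2 sets of mouse RNA-seq samples from a study of Rnf20 in Sertoli cells. The members were taken as every gene whose symbol is Col, a number, the letter a and a number, which gave 44 genes in each table, of 17816 genes in the day 7 table and 20007 in the adult table. Rnf20 encodes an E3 ubiquitin ligase that places the mono-ubiquitin mark on lysine 120 of histone H2B, and the study removed it by Cre recombinase driven by the Amh promoter, which is active in Sertoli cells, the somatic cells that support the germ cells inside the seminiferous tubule. At day 7 after birth, primary Sertoli cells were obtained by enzyme digestion of tubules and passaged in culture, with 2 samples from Rnf20 Flox/Flox mice, called control here (their labels read WT), and 2 from Amh-Rnf20-/- mice, called knockout. The adult set holds whole testis, with 3 samples labelled WT and 3 labelled RNF20 conditional knockout, and its experiment is not described in the study's methods. For the day 7 samples the methods give 3 individuals in each group, of which 2 were analysed here, and their labels name adult tissue as the growth condition while their titles read day 7. The labels name no treatment, and whether the samples of a group came from separate animals is not stated for the adult set, so p-values measure the spread between these samples.

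A collagen molecule is a triple helix of chains, each made from a collagen gene. Fibrillar collagens such as types I, III and V form the fibres of connective tissue, type IV forms the network of basement membranes, and type VI forms beaded microfilaments between them. Fibril-associated collagens with interrupted helices (FACIT) sit on the surface of fibres, and multiplexins lie where basement membrane meets stroma. In the testis, Sertoli cells and the peritubular myoid cells that surround each tubule together lay down the basement membrane of the tubule wall, with collagen fibres outside it, and fibroblasts of the interstitium make fibrillar collagen.

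The depth was 17477268 to 17705347 estimated counts per sample at day 7 and 15431912 to 16574144 in adult testis, and each value below stands for 1 library. Levels are given as FPKM, the fragments per kilobase of transcript scaled to the library's fragments, which can be compared between genes of different length. Differences are log2 fold changes, knockout against control, from edgeR's quasi-likelihood test with TMM scaling on the rounded counts, with the standard error (SE) and a p-value adjusted by Benjamini-Hochberg over all genes tested, and a gene was called at an adjusted p under 0.05. The test was run on genes that reached an FPKM of 0.5 in 2 or more samples at day 7 and in 3 or more in adult testis, 12880 at day 7 and 15919 in adult testis. Rnf20 had FPKM values of 16.64 and 16.01 in the control and 10.25 and 12.58 in the knockout Sertoli cells (log2 fold change -0.49, SE 0.12, adjusted p = 0.222). In adult testis it was 4.89, 3.32 and 4.09 in the samples labelled WT and 9.16, 5.76 and 9.85 in those labelled knockout (log2 fold change 0.12, SE 0.27, adjusted p = 0.688), and with scaling by the total count its log2 fold change was 0.97 (adjusted p = 0.0168). The targeted gene was thus not lower in the adult samples labelled knockout, and the direction of each adult difference below rests on the label. By Western blot, the study reported less RNF20 protein and less of the H2B mark in adult Amh-Rnf20-/- testes. Its quantitative PCR of adult testes included Rnf20, and its text states the outcome only for Cldn11. The study's histology showed neither round nor elongated spermatids in Amh-Rnf20-/- testes, and it counted fewer spermatocytes there. Here the summed FPKM of 8 spermatid markers was 123082 to 191621 in the samples labelled WT and 3.38 to 86.0 in those labelled knockout. For 8 spermatocyte markers it was 494 to 527 and 6.85 to 162. The labels themselves were not tested. The counts are per gene, and transcripts lacking the floxed exons are counted with the rest. The first adult sample labelled knockout stood apart from the other two, with a chi-square per degree of freedom of 88.1 and 118 against them, compared with 21.4 between those and 13.7 to 17.6 among the samples labelled WT. At day 7 the knockout samples differed by 34.3 and the control samples by 2.65 on the same measure.

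Collagen transcripts made up more of the RNA in both sets of samples that carry the knockout label. In Sertoli cells at day 7, 2.22% and 2.25% of all counts fell on the 44 genes in the control samples and 3.36% and 3.08% in the knockout samples. In adult testis the share was 0.0859%, 0.0753% and 0.0701% in the samples labelled WT and 0.284%, 0.172% and 0.214% in those labelled knockout. A share of all counts is on the total-count scale, where the median log2 fold change of all adult genes tested was 0.87. With TMM scaling that median was 0.011. The groups did not overlap in either set, and the 95% Wilson intervals, which cover counting error only, were narrow, for example 2.21% to 2.23% for the first control sample at day 7 and 0.282% to 0.287% for the first adult sample labelled knockout. The make-up of this share also differed. Types I and III (Col1a1, Col1a2 and Col3a1) held 50.5% and 51.7% of the collagen counts in the day 7 control samples and 59.1% and 55.1% in the knockout samples. In adult testis they held 4.52%, 3.67% and 4.40% in the samples labelled WT, where Col16a1 or Col22a1 had the highest FPKM, and 43.8%, 40.7% and 40.8% in those labelled knockout, where Col1a2 did.

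At day 7, 29 of the 44 members passed the filter on low values. None was called by edgeR's quasi-likelihood test, where the percentage of all genes called was 0, and the smallest adjusted p of a member was 0.119. At an unadjusted p under 0.05 there were 21 of the 29, against 15.5% of all genes tested. Of the 29, 17 had both knockout samples above both control samples on TMM-scaled counts, against 24.8% of all genes tested, 4 had both below, against 26.1%, and in 8 the groups overlapped. Of the 17, Col23a1 and Col26a1 passed the filter only through the knockout samples. The median log2 fold change of the 29 was 0.47, and that of all genes tested was -0.0039. DESeq2 called 15 members, against 4.51% of all genes. Without the first knockout sample edgeR called 21 members, against 21.4% of all genes, and without the second it called 24, against 39.9%, fits in which the remaining knockout sample is assumed to vary like the controls.

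**Figure D1:**
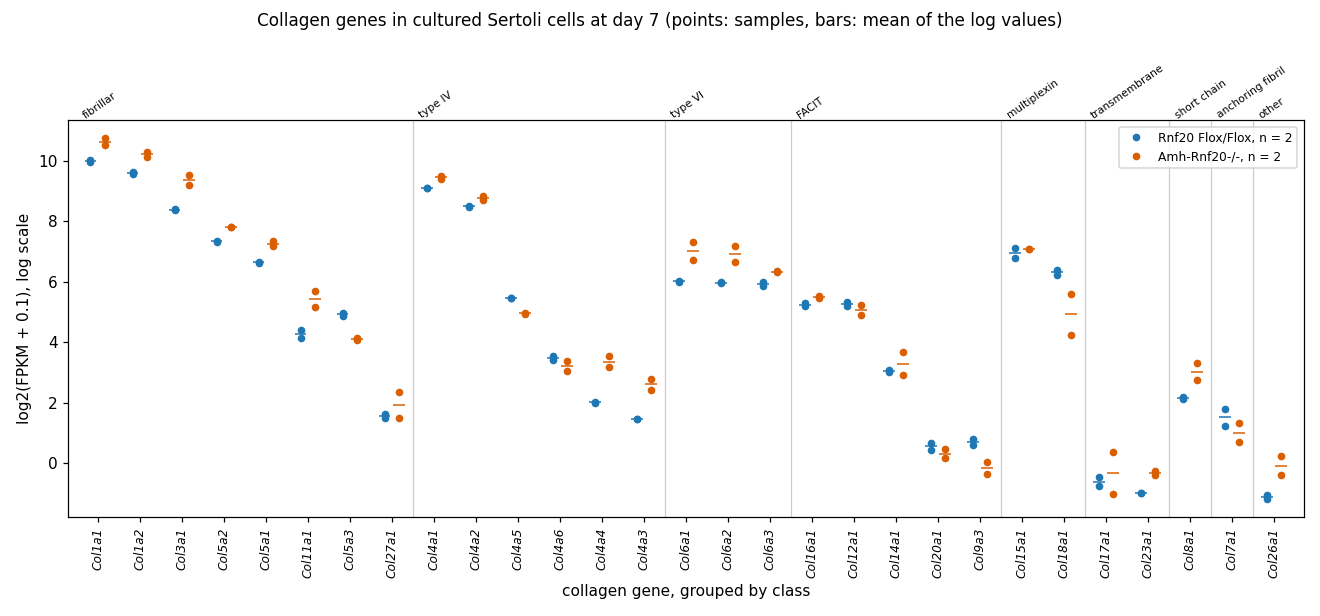
FPKM of the 29 collagen genes tested at day 7, as log2(FPKM + 0.1), with 1 point per sample and a bar at the mean of the log values, in 2 control (Rnf20 Flox/Flox) and 2 knockout (Amh-Rnf20-/-) samples. Genes are grouped by class and ordered by mean FPKM, from Col1a1 at 1011.22 to 1718.14 downward, and the knockout points lie above the control points in 17 genes and below them in 5, of which Col4a6 overlapped once the counts were TMM-scaled.

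Of the 8 fibrillar genes tested in the cultured Sertoli cells, 6 were above the control range in both knockout samples and 1 below, where 24.8% and 26.1% of all genes were. None was called by edgeR's quasi-likelihood test, 7 had an unadjusted p under 0.05 (15.5% of all genes), and DESeq2 called 6 higher and 1 lower (4.51% of all genes in both directions). Col1a1, which encodes the alpha 1 chain of type I collagen, had FPKM values of 1011.22 and 1045.82 in control and 1718.14 and 1463.59 in knockout cells, or 1029 ± 24.5 against 1591 ± 180 (SD, n = 2, log2 fold change 0.67, SE 0.11, adjusted p = 0.142 by edgeR). Col1a2, the partner chain in the same helix, measured 753.98 and 800.15 in control and 1260.35 and 1128.35 in knockout cells (log2 fold change 0.66, SE 0.094, adjusted p = 0.132). Both chains were higher in each knockout sample than in either control, by nearly the same factor, and neither passed the adjusted threshold. Col3a1, whose product forms homotrimers that mix with type I in fine reticular fibres, was 330.31 and 337 and 741.04 and 587.72 (log2 fold change 1.03, SE 0.14, adjusted p = 0.132), with a larger log2 fold change than the type I chains and again no overlap. The type V chains, which start and limit the width of type I fibres, were also above the control range in both knockout samples. Col5a1 measured 99.69 and 100.08 and then 162.28 and 145.88 (log2 fold change 0.67, SE 0.088, adjusted p = 0.132). Col5a2 was 164.61 and 160.6 in control and 225.85 and 223.14 in knockout cells (log2 fold change 0.50, SE 0.072, adjusted p = 0.132). Col5a3, the third type V chain, went the other way, at 29.21 and 31.52 in control and 16.96 and 17.49 in knockout cells (log2 fold change -0.78, SE 0.081, adjusted p = 0.119), with both knockout samples below both controls. Col11a1, a chain of type XI that can join with type V chains, was 21.27 and 17.76 and 51.83 and 35.65 (log2 fold change 1.25, SE 0.24, adjusted p = 0.165), without overlap. Col27a1, at 2.7 and 2.98 and 5 and 2.75, overlapped between the groups, and Col2a1, Col11a2 and Col24a1 were under the FPKM minimum.

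The sequences in front of 4 members are shown to set genes with like and unlike changes beside each other. RefSeq windows of 250 bases before a listed start were at hand for 35 of the 44 members (38 windows, GRCm38.p6), and 3 motifs were searched in them on both strands. TATAAA was found in 5 of the 38 windows (13.2%) and in 12.4% of all 32851 windows of that length. CCAAT was found in 13 (34.2%), against 33.9% of all, and GGGCGG in 22 (57.9%), against 32.7%. A match is a description of the letters only. Below, Col1a2, Col3a1 and Col6a1 are shown as members higher in both sets of samples and Col16a1 as a member that differed in opposite directions, each 5′ to 3′ on the gene's strand up to the outermost RefSeq start, with matches in capitals. The window of Col1a2 (chr6:4505368-4505617, plus strand) holds 2 copies of GGGCGG and a CCAAT that begins 109 bases before the start. That of Col3a1 (chr1:45311288-45311537, plus strand) holds TATAAA 117 bases before the start and is poor in G and C (35.2%). The window of Col6a1 (chr10:76726045-76726294, minus strand) holds none of the 3 motifs. That of Col16a1 (chr4:130047590-130047816, plus strand, 227 bases, overlapping the RefSeq gene Gm12963) is 75.8% G and C, with GGGCGG 136 and CCAAT 90 bases before the start.
Col1a2: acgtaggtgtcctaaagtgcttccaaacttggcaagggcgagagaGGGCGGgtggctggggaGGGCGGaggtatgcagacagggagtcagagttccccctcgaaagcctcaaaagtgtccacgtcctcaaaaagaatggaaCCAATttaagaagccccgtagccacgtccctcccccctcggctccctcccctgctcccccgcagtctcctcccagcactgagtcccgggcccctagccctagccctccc
Col3a1: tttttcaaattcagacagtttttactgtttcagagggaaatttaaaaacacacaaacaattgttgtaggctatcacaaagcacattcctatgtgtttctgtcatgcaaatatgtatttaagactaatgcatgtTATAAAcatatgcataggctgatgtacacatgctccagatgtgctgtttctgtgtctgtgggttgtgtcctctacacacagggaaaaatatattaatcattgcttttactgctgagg
Col6a1: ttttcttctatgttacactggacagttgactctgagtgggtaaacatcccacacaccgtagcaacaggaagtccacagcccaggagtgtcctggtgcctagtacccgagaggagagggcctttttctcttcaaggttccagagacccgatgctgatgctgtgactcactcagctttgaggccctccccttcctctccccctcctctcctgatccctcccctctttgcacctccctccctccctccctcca
Col16a1: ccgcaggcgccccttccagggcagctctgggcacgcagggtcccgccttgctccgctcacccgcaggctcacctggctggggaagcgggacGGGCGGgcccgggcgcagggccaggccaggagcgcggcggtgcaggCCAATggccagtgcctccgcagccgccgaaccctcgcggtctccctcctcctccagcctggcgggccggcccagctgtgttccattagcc

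Type IV collagen is made as pairs of chains from genes that lie head to head. At day 7 none of the 6 genes was called by edgeR's quasi-likelihood test, where 5 had an unadjusted p under 0.05 against 15.5% of all genes, and DESeq2, which called 4.51% of all genes, called Col4a1, Col4a3 and Col4a4 higher and Col4a5 lower. On TMM-scaled counts 4 were above the control range in both knockout samples, 1 was below it and 1 overlapped, where 24.8% of all genes were above and 26.1% below. Col4a1 (GRCm38.p6, chromosome 8, 11198423 to 11312889) and Col4a2 (11312805 to 11449287) run in opposite directions from a shared start region, where the RefSeq genes overlap by 85 bases. Their products form the common network of all basement membranes. Col4a1 measured 556.19 and 547.55 in control and 682.03 and 733.9 in knockout cells (log2 fold change 0.40, SE 0.078, adjusted p = 0.17 by edgeR). Col4a2 was 367.46 and 359.76 and 413.92 and 459.31 (log2 fold change 0.30, SE 0.085, adjusted p = 0.245). Both were among the 5 members with the highest mean FPKM, and both were modestly above the control range. Col4a3 and Col4a4 (chromosome 1, RefSeq genes overlapping by 114 bases), whose products join with that of Col4a5 in the basement membranes of the kidney glomerulus and the testis, were far less abundant. Col4a3 measured 2.64 and 2.68 in control and 6.84 and 5.3 in knockout cells (log2 fold change 1.23, SE 0.16, adjusted p = 0.132). Col4a4 was 4.01 and 3.84 and 9 and 11.54 (log2 fold change 1.41, SE 0.14, adjusted p = 0.119). This pair had larger log2 fold changes than Col4a1 and Col4a2, with no overlap between the groups. Col4a5, on the X chromosome with its start 1275 bases from that of Col4a6, which runs the other way, was lower in both knockout samples, at 43.65 and 44.42 in control and 30.72 and 31.24 in knockout cells (log2 fold change -0.47, SE 0.071, adjusted p = 0.141). Col4a6, its neighbour, was 10.47 and 11.63 and 10.41 and 8.1 (log2 fold change -0.22, SE 0.16, adjusted p = 0.558), with overlap on TMM-scaled counts.

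The 3 type VI genes tested at day 7 were above the control range in both knockout samples, where 24.8% of all genes were, and DESeq2 but not edgeR called all 3, against 4.51% and 0% of all genes. Col6a1 and Col6a2, neighbours on chromosome 10 whose products join with that of Col6a3, had nearly equal levels. Col6a1 measured 64.93 and 64.34 in control and 159.43 and 106.31 in knockout cells (log2 fold change 1.08, SE 0.21, adjusted p = 0.171 by edgeR), and Col6a2 measured 64.35 and 61.66 and 146.73 and 100.43 (log2 fold change 1.01, SE 0.20, adjusted p = 0.172). Col6a3 was 63.99 and 58.58 and 81.29 and 79.59 (log2 fold change 0.44, SE 0.086, adjusted p = 0.17), a smaller difference than in its 2 partners. None of the 3 overlapped, and in Col6a1 and Col6a2 the first knockout sample was the higher one. Col6a4, Col6a5 and Col6a6, which can take the place of Col6a3, stayed under the FPKM minimum in at least 3 of the 4 samples.

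Among the remaining classes at day 7, edgeR called no gene and DESeq2 called only Col8a1, against 0% and 4.51% of all genes. Col18a1, Col9a3 and Col26a1, described below, had adjusted p-values of 0.413, 0.455 and 0.430 by DESeq2. Col18a1, whose product carries the endostatin fragment at its end, was lower in the knockout cells, at 83.4 and 75.6 in control and 18.91 and 48.56 in knockout samples (log2 fold change -1.19, SE 0.44, adjusted p = 0.32 by edgeR). The log2 fold change was -0.67 without the first knockout sample and -2.0 without the second, so its size rests on the first. Col15a1, the other multiplexin gene, overlapped (110.05 and 138.34 and 135.45 and 134.69, log2 fold change 0.17, SE 0.13, adjusted p = 0.588). In the FACIT class, Col16a1 was slightly above the control range in both knockout samples (36.36 and 39.37 and 44.1 and 46.07, log2 fold change 0.29, SE 0.081, adjusted p = 0.245). Col9a3, a chain of cartilage type IX, was below it at 1.4 and 1.66 and 0.68 and 0.92 (log2 fold change -0.92, SE 0.27, adjusted p = 0.257), and Col12a1, Col14a1 and Col20a1 overlapped. Col26a1, a small collagen known from testis and ovary, was 0.34 and 0.38 in control and 0.66 and 1.07 in knockout cells (log2 fold change 1.40, SE 0.41, adjusted p = 0.256), a difference that rests on 13 and 14 against 25 and 45 counts. Col8a1 and the transmembrane Col23a1 were also higher without overlap, with log2 fold changes of 0.95 and 0.83, while Col7a1 and Col17a1 overlapped. The 15 members below the filter had FPKM values from 0 to 0.91.

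Marker genes of the cell types a tubule digest can hold were read in the same samples. Of the 57 tested at day 7, none was called by edgeR's quasi-likelihood test, 26 had an unadjusted p under 0.05 (15.5% of all genes), and DESeq2 called 11 higher and 3 lower (4.51% of all genes in both directions). The counts below are of markers above or below the control range in both knockout samples on TMM-scaled counts, as 24.8% and 26.1% of all genes were. The summed FPKM of 7 peritubular myoid markers was 2376 to 2515 in the control and 4115 to 4291 in the knockout samples, and all 7 were above the control range in both knockout samples. The 7 stromal fibroblast markers summed to 85 to 85.7 and 216 to 291, with 6 of 6 tested above the control range. The 17 Sertoli markers summed to 1744 to 1913 in the control and 987 to 1420 in the knockout samples, with 10 of 16 tested below the control range and 2 above, and the 9 spermatogonium markers summed to 203 to 210 and 140 to 145, all 9 below it. The marker sums of Leydig cells were 149 to 156 and 205 to 301, of endothelium 37.8 to 40.2 and 39.2 to 54.1, of macrophages 13.2 to 15.6 and 13.3 to 26.9, of spermatocytes 11.4 to 13.4 and 7.57 to 8.70 and of spermatids, with 5 of 8 not in the table, 0.93 to 1.37 and 0.43 to 1.23. The level of Acta2, the smooth muscle actin of myoid cells, was 1097.44 and 1058.09 in control and 2134.23 and 2091.04 in knockout samples, so the cells labelled Sertoli held markers of other somatic cells in both groups. The part of other cells in the collagen values was not tested, and in bulk RNA a different number of cells of a type and a different amount of RNA per cell cannot be told apart.

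Genes that make or bind collagen were counted from 6 lists, and other basement membrane genes, such as laminins, from a further 1. At day 7 none of the 51 tested genes of the 7 lists was called by edgeR's quasi-likelihood test (0% of all genes called), 26 had an unadjusted p under 0.05 (15.5% of all genes) and DESeq2 called 12 (4.51% of all genes). Both knockout samples were above the control range for 35 of the 51 and below it for 7, where 24.8% and 26.1% of all genes were. Of 10 prolyl hydroxylase genes and partners, which modify the chains so that the helix is stable, 9 were above the control range and 1 below, with a median log2 fold change of 0.23. The cross-linking list, 5 lysyl oxidases and the peroxidase Pxdn, had 3 of 6 above, all lysyl oxidases, among them Loxl1 (95.84 and 96.14 in control and 187.83 and 144.84 in knockout cells, log2 fold change 0.83, SE 0.15, adjusted p = 0.159). Serpinh1, the collagen chaperone, measured 880.26 and 910.5 and 1028.83 and 1052.85 (log2 fold change 0.26, SE 0.071, adjusted p = 0.242). Other basement membrane genes had 9 of 11 above and 1 below, with a median of 0.38. Collagen receptors had 5 of 7 above and 2 below. Itga1, the alpha chain of a collagen-binding integrin, was 0.81 and 0.58 and 2.92 and 2.72 (log2 fold change 2.06, SE 0.22, adjusted p = 0.119), whereas Ddr1, a receptor tyrosine kinase that binds collagen, was 156.62 and 145.71 and 93.05 and 104.36 (log2 fold change -0.58, SE 0.093, adjusted p = 0.141). The lists of lysyl hydroxylases and glycosyltransferases (2 of 4 above, 1 below), chaperone and export (4 of 7 above, 2 below) and propeptide proteinases (3 of 6 above) had medians from 0.069 to 0.18.

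In adult testis, 38 of the 44 members were tested, and 23 were called higher and 9 lower in the samples labelled knockout. Of all genes tested, 40.9% were called higher and 40.6% lower, and of the 38 members 60.5% and 23.7%. At the study's thresholds, more than 1 log2 unit of difference in either direction with an adjusted p below 0.001, 16 members were higher and 6 lower, against 23.0% and 23.7% of all genes. The 23 and 9 called members were also the members with separate groups on TMM-scaled counts, as 42.4% and 43.1% of all genes were. The median log2 fold change of the 38 was 1.81 and that of all genes tested 0.011. The filter bears on these counts. Of the 23 higher members, 10 were under the FPKM minimum in every sample labelled WT. They were tested only through the samples labelled knockout. These were Col4a5, Col5a2, Col5a3, Col6a3, Col6a5, Col6a6, Col7a1, Col8a2, Col11a1 and Col13a1. Of the 9 lower ones, 4 reached the minimum in every sample labelled WT but not in every one labelled knockout. Col2a1, Col9a1 and Col26a1 were under it in every sample labelled knockout, and Col14a1 only in the first. Scaling bears on them too. TMM factors were 0.710 to 0.761 in the samples labelled WT and 1.27 to 1.42 in those labelled knockout, and scaling by the total count instead, which is the scale of the FPKM values printed here, moved the median of all genes to 0.87 and the share of higher genes among all called from 50.1% to 64.3%. On that scale 26 members were called higher and 7 lower, against 54.1% and 30.0% of all genes.

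**Figure D2:**
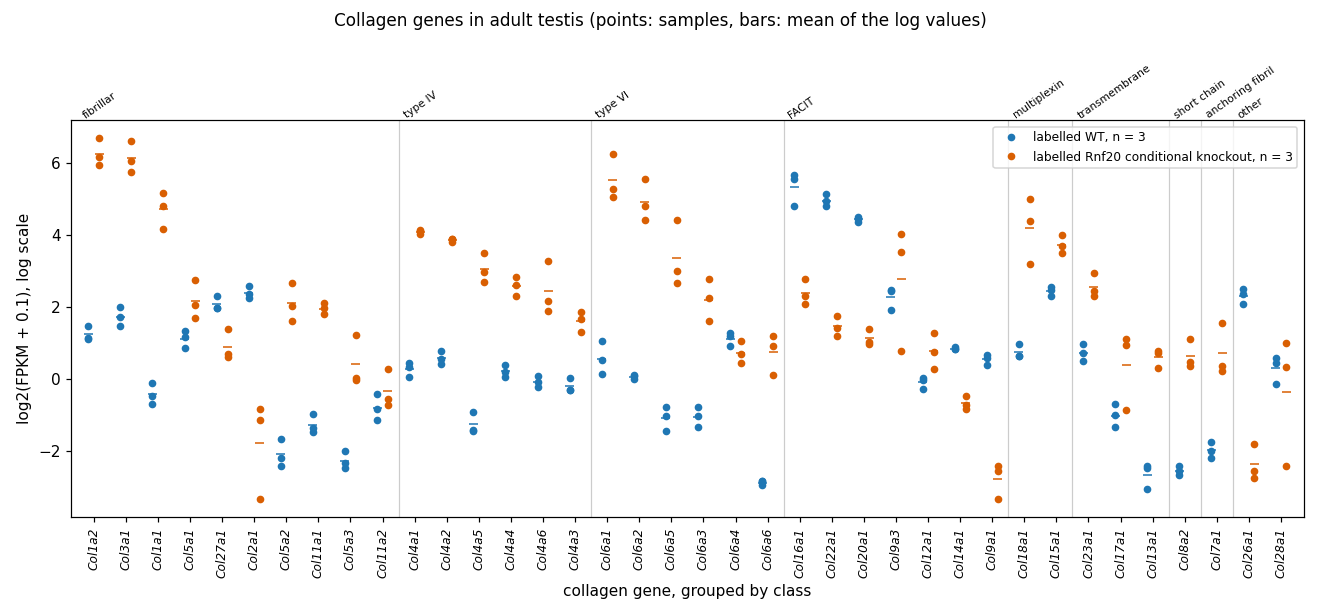
FPKM of the 38 collagen genes tested in adult testis, as log2(FPKM + 0.1), with 1 point per sample and a bar at the mean of the log values, in 3 samples labelled WT and 3 labelled RNF20 conditional knockout. Fibrillar, type IV and type VI genes lie mostly higher in the samples labelled knockout, and Col16a1, Col22a1 and Col20a1 in the FACIT class lie lower, with no overlap in any of those 3.

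In adult testis, 6 of the 10 fibrillar genes tested were called higher and 2 lower, where 40.9% and 40.6% of all genes were. Of the 6, Col5a2, Col11a1 and Col5a3 passed the filter only through the samples labelled knockout. Of the 2, Col2a1 passed it only through those labelled WT. Col1a1 measured 0.84, 0.52 and 0.63 in the samples labelled WT and 36.16, 17.97 and 28.15 in those labelled knockout, or 0.663 ± 0.163 against 27.4 ± 9.12 (SD, n = 3, log2 fold change 4.53, SE 0.36, adjusted p = 8.45e-05 by edgeR). Col1a2 was 2.7, 2.13 and 2.07 and 103.45, 62.16 and 71.95 (log2 fold change 4.26, SE 0.29, adjusted p = 5.79e-05), and Col3a1 was 3.9, 2.67 and 3.2 and 98.96, 54.35 and 67.02 (log2 fold change 3.66, SE 0.32, adjusted p = 0.000116). All 3 rose well beyond the spread of either group, and the first sample labelled knockout was the highest for each. Col5a2 rose from 0.22, 0.12 and 0.09 to 6.28, 2.99 and 4 (log2 fold change 4.13, SE 0.48, adjusted p = 0.000352), Col11a1 by 2.74 and Col5a3 by 2.76 on the log2 scale. Col5a1, which joins Col5a2 in the type V helix, did not pass the test at 1.73, 2.16 and 2.45 and 6.72, 3.18 and 4.08 (log2 fold change 0.29, SE 0.33, adjusted p = 0.438), although its FPKM did not overlap and it was called higher with total-count scaling (log2 fold change 1.13, adjusted p = 0.013). Col2a1, the cartilage collagen, fell from 5.11, 4.72 and 5.9 in the samples labelled WT to 0, 0.46 and 0.36 in those labelled knockout (log2 fold change -5.10, SE 0.90, adjusted p = 0.00213). It had 361 to 448 counts in the first group and 0, 36 and 26 in the second, and its log2 fold change was -4.39 without the sample at 0 and ranged from -5.75 to -2.31 over the alternatives. Col27a1 was 3.85, 3.83 and 4.92 and 1.43, 1.52 and 2.56 (log2 fold change -1.31, SE 0.25, adjusted p = 0.0029), a call that was lost with total-count scaling (-0.45, adjusted p = 0.173). Col11a2 overlapped, and Col24a1 was not tested.

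All 6 type IV genes rose in the samples labelled knockout, where 40.9% of all genes were called higher. Of these, Col4a5 passed the filter only through the samples labelled knockout. Col4a1 measured 1.26, 1.17 and 0.95 in the samples labelled WT and 17.46, 16.29 and 17.66 in those labelled knockout (log2 fold change 3.07, SE 0.16, adjusted p = 3.22e-05 by edgeR), and Col4a2 measured 1.62, 1.38 and 1.25 and 14.73, 14 and 14.71 (log2 fold change 2.50, SE 0.14, adjusted p = 3.59e-05). The spread within each group was small for this pair, and the first sample labelled knockout did not stand out. Col4a5 rose from 0.28, 0.27 and 0.43 to 11.26, 6.39 and 7.77 (log2 fold change 3.84, SE 0.33, adjusted p = 0.000113). Col4a3 was 0.93, 0.72 and 0.71 and 3.54, 2.4 and 3.11 (log2 fold change 1.08, SE 0.22, adjusted p = 0.00401). Col4a4 (1.21, 0.95 and 1.05 and 7.11, 4.86 and 6, log2 fold change 1.66) and Col4a6 (0.97, 0.86 and 0.76 and 9.68, 3.63 and 4.43, 1.96) also rose. No gene of the class overlapped between the groups.

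Of the 6 type VI genes, 5 rose and 1 was called lower, against the same 40.9% and 40.6% of all genes. Of the 5, Col6a3, Col6a5 and Col6a6 passed the filter only through the samples labelled knockout. Col6a1 measured 2, 1 and 1.34 in the samples labelled WT and 77.07, 33.45 and 39.28 in those labelled knockout (log2 fold change 4.28, SE 0.47, adjusted p = 0.000284 by edgeR). Col6a2 was 0.98, 0.91 and 0.97 and 47.2, 21.55 and 27.88 (log2 fold change 4.18, SE 0.37, adjusted p = 0.000124). Col6a3, the third chain of the helix, rose less, from 0.39, 0.3 and 0.49 to 6.82, 2.95 and 4.68 (log2 fold change 2.74, SE 0.38, adjusted p = 0.000713). For all 3 the first sample labelled knockout was the highest. Among the chains that can replace Col6a3, which lie together on chromosome 9, Col6a5 rose from 0.49, 0.27 and 0.39 to 21.23, 6.31 and 8.01 (log2 fold change 4.13, SE 0.60, adjusted p = 0.000901) and Col6a6 from 0.03, 0.04 and 0.04 to 2.21, 0.98 and 1.81 (log2 fold change 4.79, SE 0.47, adjusted p = 0.000178). Col6a6 had 3 to 4 counts per sample labelled WT and passed the filter through the samples labelled knockout, and its log2 fold change ranged from 1.33 to 5.62 over the alternatives. Col6a4 was 1.79, 2.33 and 2.21 and 1.99, 1.27 and 1.53 (log2 fold change -1.26, SE 0.25, adjusted p = 0.00346), where the FPKM values overlapped and the call was lost with total-count scaling (-0.41, adjusted p = 0.130).

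In the FACIT class 0 of 7 tested genes were called higher and 5 lower by edgeR, where 40.9% and 40.6% of all genes were. Of the 5, Col9a1 passed the filter only through the samples labelled WT. Col16a1, the member with the highest mean FPKM in the samples labelled WT, fell from 51.09, 47.29 and 27.84 to 4.14, 4.93 and 6.83 (log2 fold change -3.85, SE 0.32, adjusted p = 0.000104 by edgeR). Col22a1, known from the junction of muscle and tendon, fell from 35.45, 27.83 and 30.74 to 3.32, 2.21 and 2.59 (log2 fold change -4.53, SE 0.23, adjusted p = 3.22e-05). Col20a1 fell from 21.99, 22.9 and 20.62 to 2.56, 1.96 and 1.87 (log2 fold change -3.41, SE 0.21, adjusted p = 4.45e-05). These 3 genes had lower values in every sample labelled knockout than in any labelled WT by a wide margin. Col9a1, a chain of type IX, fell from 1.51, 1.42 and 1.21 to 0, 0.09 and 0.07 (log2 fold change -5.53, SE 0.66, adjusted p = 0.000404) on 0 to 4 counts per sample labelled knockout, and its log2 fold change ranged from -6.09 to -1.17 over the alternatives. Col14a1 fell from 1.69, 1.68 and 1.76 to 0.46, 0.51 and 0.63 (log2 fold change -2.54, SE 0.18, adjusted p = 6.31e-05). The partner chain Col9a3 was not called, at 5.47, 3.7 and 5.4 and 1.63, 11.47 and 16.27 (log2 fold change 0.12, SE 0.70, adjusted p = 0.88), with the first sample labelled knockout below all samples labelled WT and the other two above them. Col9a2 (0.02, 0.05 and 0 and 0.43, 1.27 and 2.5) and Col19a1 did not pass the filter, and Col12a1 was not called with TMM scaling and higher with total-count scaling (1.25, adjusted p = 0.00645). All 5 calls held with total-count scaling.

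Of the other members, Col26a1 fell from 5.1, 4.15 and 5.65 in the samples labelled WT to 0.07, 0.05 and 0.19 in those labelled knockout (log2 fold change -6.14, SE 0.42, adjusted p = 5.89e-05 by edgeR), on 2 to 7 counts per sample in the second group, and its log2 fold change ranged from -6.68 to -2.43 over the alternatives. Col18a1 rose from 1.86, 1.46 and 1.47 to 9.1, 21.17 and 31.93 (log2 fold change 2.84, SE 0.42, adjusted p = 0.00104), with the first sample labelled knockout the lowest of its group. Col15a1 was 5.45, 4.87 and 5.81 and 15.97, 11.34 and 13.04 (log2 fold change 0.51, SE 0.18, adjusted p = 0.0327), a small call that was lost with median-ratio scaling (0.32, adjusted p = 0.159), with DESeq2 (adjusted p = 0.221), with the replicate number as a block (adjusted p = 0.0576) and without any 1 of the samples labelled WT (adjusted p 0.0673 to 0.10). The anchoring fibril gene Col7a1, the short chain gene Col8a2 and the transmembrane genes Col13a1 and Col23a1 rose by 2.62, 3.48, 3.56 and 1.08 on the log2 scale. Among them, Col7a1, Col8a2 and Col13a1 passed the filter only through the samples labelled knockout. Col17a1 overlapped and was called higher with total-count scaling (1.84, adjusted p = 0.0269, against 0.96 and 0.161 with TMM). Col28a1 overlapped too, with 0.09, 1.16 and 1.92 in the samples labelled knockout, the first again apart. Col8a1, Col10a1 and Col25a1 were under the FPKM minimum.

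In the adult set the cell markers differed widely between the labelled groups, and their calls stand beside 40.9% of all genes called higher and 40.6% lower. The summed FPKM of 8 spermatid markers was 123082 to 191621 in the samples labelled WT and 3.38 to 86.0 in those labelled knockout, and that of 8 spermatocyte markers was 494 to 527 and 6.85 to 162, with 8 and 6 called lower. The 7 stromal fibroblast markers summed to 44.1 to 56.4 and 1183 to 3243 (5 called higher, 1 lower) and the 7 peritubular myoid markers to 343 to 409 and 463 to 677 (5 higher, and Actg2 lower). Actg2 alone was 255.04, 335.45 and 278.04 in the samples labelled WT and 1.67, 2.22 and 3.6 in those labelled knockout. It thus held most of the WT myoid sum, and the 5 myoid markers called higher had log2 fold changes of 1.81 to 3.86. For Leydig cells the sums were 3997 to 5602 and 63070 to 87434 (6 of 6 higher), for macrophages 46.1 to 51.9 and 898 to 1194 (7 of 7) and for endothelium 6.41 to 8.15 and 38.6 to 64.6 (6 of 7). The 17 Sertoli markers summed to 715 to 896 and 3003 to 6841 (8 higher, 1 lower), and the 9 spermatogonium markers to 259 to 290.5 and 48.2 to 441 (2 higher, 2 lower). In the first sample labelled knockout, 8 of the 17 Sertoli markers were above all samples labelled WT in FPKM, among them Inha and Gata4, 8 were below, among them Sox9 and Fshr, and 1 was between, while in each of the other two 16 were above and 1 below. Their part in the collagen values was not tested. Without that sample, edgeR called 25 members higher and 9 lower, against 45.3% and 41.1% of all genes.

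The genes of collagen synthesis, collagen receptors and other basement membrane genes were read in the same samples. Over the 7 lists, 42 of 50 genes tested were called higher and 4 lower by edgeR's quasi-likelihood test, where 40.9% and 40.6% of all genes were. The filter bears on these counts too. Of the 42, P3h2, P3h3, Adamts2, Adamts14, Ddr2, Mrc2, Lox, Loxl2, Loxl3, Loxl4 and Pxdn were under the FPKM minimum in every sample labelled WT. They were tested only through the samples labelled knockout. Of the 4, Pcolce2 and Itga2 were under it in every sample labelled knockout. All 9 tested prolyl hydroxylase genes rose, among them P4hb, the beta subunit of the enzyme (23.49, 18.39 and 19.63 and 172.79, 147.57 and 161.18, log2 fold change 2.12, SE 0.17, adjusted p = 8.93e-05), and all 4 tested lysyl hydroxylase and glycosyltransferase genes. Of the chaperone and export genes 4 of 7 rose, Serpinh1 from 3.95, 2.06 and 3.15 to 42.93, 23.64 and 29.27 (log2 fold change 2.52, SE 0.33, adjusted p = 0.000617), and Sec23a, a coat protein gene of the vesicles that leave the endoplasmic reticulum, fell by 1.60 on the log2 scale. Pcolce, an enhancer of propeptide removal, rose from 37.22, 33.9 and 30.81 to 774.94, 574.38 and 508.59 (log2 fold change 3.34, SE 0.27, adjusted p = 8.8e-05) with 3 more of 5 tested genes of its list, whereas its relative Pcolce2 was lower at 0.82, 0.99 and 0.99 and 0.08, 0.12 and 0 (log2 fold change -4.57, SE 0.65, adjusted p = 0.000862). Cross-linking genes rose in 5 of 6 and other basement membrane genes in 10 of 11. All 5 of those cross-linking genes had passed the filter only through the samples labelled knockout. Among 8 receptors tested, 6 rose, and the integrin alpha chains Itga1 (5.07, 6.16 and 6.76 and 1.04, 1.17 and 1.09, log2 fold change -3.30, SE 0.17, adjusted p = 3.18e-05) and Itga2 (1.41, 1.24 and 1.38 and 0.09, 0.23 and 0.21, log2 fold change -3.77, SE 0.35, adjusted p = 0.000148) fell.

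The ratio of 2 chains within a sample does not depend on how libraries are scaled, so ratios were compared for pairs with both genes at an FPKM of at least 0.5 in every sample, 8 pairs at day 7 and 6 in adult testis. Exact permutation tests (two-sided) over the samples were used, which cannot give a p under 0.33 for 2 against 2 or under 0.1 for 3 against 3, so no ratio could pass 0.05. Adjusted over the ratios of a table, the smallest p became 0.53 at day 7 and 0.15 in adult testis. In Sertoli cells Col1a1 and Col1a2 stood at a ratio of 1.34 and 1.31 in control and 1.36 and 1.30 in knockout samples, so their groups overlapped (difference of the log2 ratios 0.0063, exact p = 1). In adult testis the ratio was 0.311, 0.244 and 0.304 in the samples labelled WT and 0.350, 0.289 and 0.391 in those labelled knockout (difference 0.26, exact p = 0.3). The material differs between the sets, so these ratios are set side by side only as values. Col3a1 relative to Col1a1 was 0.327 and 0.322 in control and 0.431 and 0.402 in knockout Sertoli cells (difference 0.36, exact p = 0.33). In adult testis this ratio was 4.64, 5.13 and 5.08 in the samples labelled WT and 2.74, 3.02 and 2.38 in those labelled knockout (difference -0.87, exact p = 0.1, adjusted p = 0.15), without overlap. With 1 added to each FPKM the adult differences of Col3a1 to Col1a1 and of Col1a1 to Col1a2 became 0.048 and -0.53, and Col1a1 was at 0.52 to 0.84 in the samples labelled WT. Within the head-to-head pairs, the adult ratio of Col4a1 to Col4a2 was 0.778, 0.848 and 0.760 in the samples labelled WT and 1.19, 1.16 and 1.20 in those labelled knockout (difference 0.57, exact p = 0.1), and that of Col4a3 to Col4a4 was 0.769, 0.758 and 0.676 and then 0.498, 0.494 and 0.518 (difference -0.54, exact p = 0.1), each without overlap. The ratio of Col6a1 to Col6a2 overlapped in adult testis (difference 0.068, exact p = 0.8). At day 7, Col4a5 to Col4a6 and Col4a3 to Col4a4 overlapped, while Col4a1 to Col4a2, Col6a1 to Col6a2 and Col5a1 to Col5a2 were higher by 0.096, 0.064 and 0.16 without overlap (exact p = 0.33 each). Without the first knockout sample the difference of Col5a1 to Col5a2 was 0.090, and without the first control sample that of Col6a1 to Col6a2 was 0.040. Relative to Col1a1, Col4a1 was lower in the knockout samples of both sets, by 0.27 at day 7 (exact p = 0.33) and by 1.40 in adult testis (exact p = 0.1) on the log2 scale. At day 7 these log2 ratios were -0.862 and -0.934 in control and -1.33 and -0.996 in knockout samples, so the size rests on the first knockout sample.

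**Figure D3:**
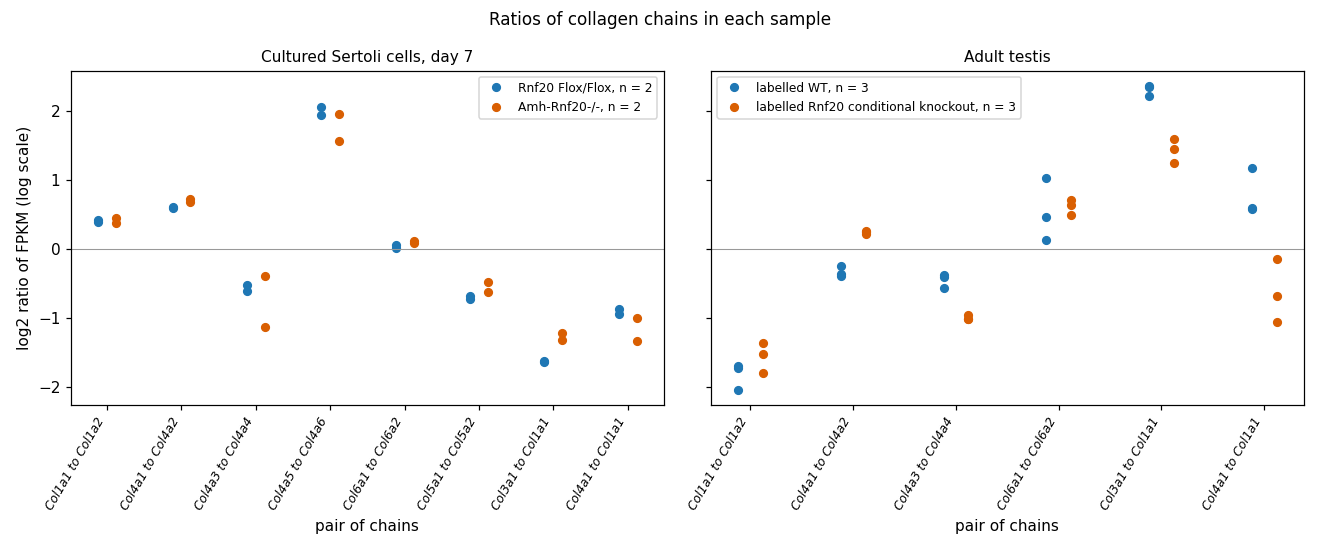
Log2 ratio of the FPKM of 2 collagen chains in each sample, 1 point per sample, for 8 pairs in cultured Sertoli cells at day 7 (left, 2 control and 2 knockout samples) and 6 pairs in adult testis (right, 3 samples labelled WT and 3 labelled RNF20 conditional knockout), with the line at equal levels. In adult testis the points of Col4a1 to Col4a2 lie on either side of the line, below it in the samples labelled WT and above it in those labelled knockout.

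Because each FPKM value and each count were deposited together, the transcript length that links them could be computed for each sample, a measure chosen after seeing the data. RSEM weights this length by the isoforms it assigns reads to, so a change in it means that reads were assigned to transcripts of another length. For genes with a single RefSeq transcript, such as Col1a1 and Col3a1, the group means of the length were nearly equal. Of 21 members with enough counts in adult testis, Col20a1 and Col27a1 had lengths more than 1.25 times apart without overlap, where 4.19% of all genes did. For Col20a1 the length was 3825, 3763 and 3800 bases in the samples labelled WT and 6628, 6674 and 6376 bases in those labelled knockout. For Col27a1 it was 4075, 4161 and 4069 bases and then 7032, 6617 and 6936 bases. In the day 7 Sertoli cells both groups had the longer values, 6880 to 7056 bases for Col20a1 and 6693 to 7002 bases for Col27a1, and 0 of 26 members passed the same limit there, against 0.131% of all genes. GENCODE M21 lists protein-coding transcripts of 3867, 4489 and 5012 bases among others for Col20a1, the longest being 5012 bases, so no transcript of that list has the longer value found for this gene. The study names a RefSeq assembly as its reference, which lists 4 transcripts of Col20a1, and their lengths were not compared here. For Col27a1 GENCODE M21 lists 1 protein-coding transcript of 7612 bases beside shorter ones of other classes, such as 4281 bases (nonsense-mediated decay) and 4279 bases (retained intron). The difference in FPKM and that in counts were accordingly unequal for both genes. The log2 ratio of the mean FPKM was -3.36 for Col20a1 and -1.19 for Col27a1, and the fold change of counts at the same total-count scale was -2.56 and -0.45. Col12a1 and Col22a1 also differed in length without overlap, with ratios of 1.18 and 0.90, inside the limit.

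**Figure D4:**
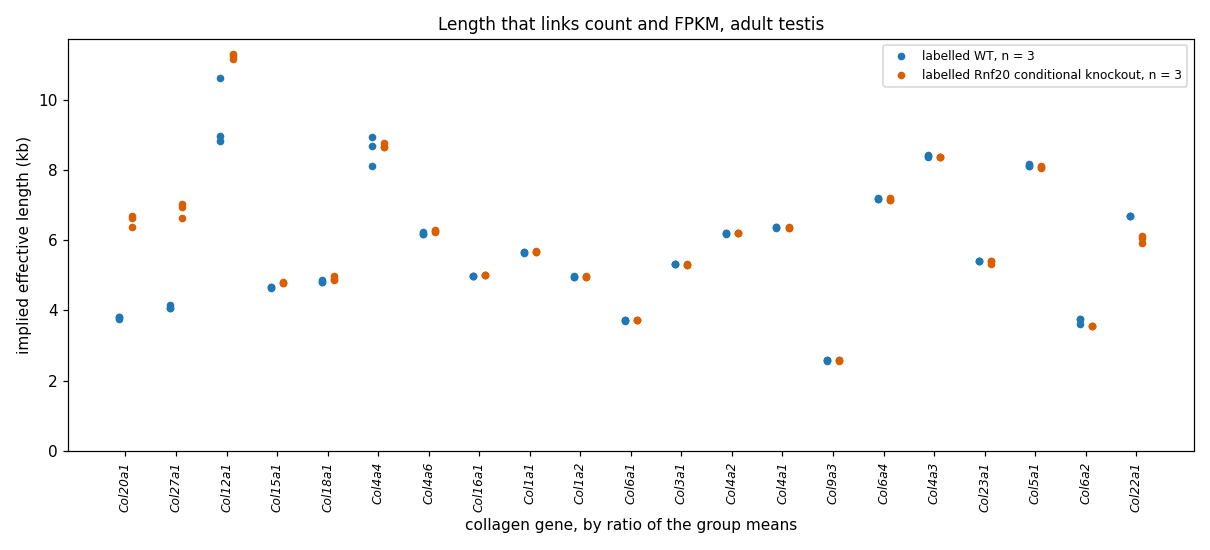
Effective transcript length in kb that links count and FPKM for 21 collagen genes in adult testis, 1 point per sample, in 3 samples labelled WT and 3 labelled RNF20 conditional knockout, ordered by the ratio of the group means. Col20a1 and Col27a1 lie at about the same length within each group and apart between groups, and most other genes have the same length in all samples.

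The 2 sets were compared gene by gene for the 28 members tested in both, with each fit on its own samples. In 13 members the groups did not overlap in either set and the difference had the same direction, higher with the knockout label each time. Of the 12378 genes tested in both sets, 15.1% were higher in both and 9.47% lower in both without overlap. The 13 members include Col1a1, Col1a2, Col3a1, Col5a2 and Col11a1 of the fibrillar class, Col4a1 to Col4a4, and Col6a1 to Col6a3. Among them, Col5a2, Col11a1 and Col6a3 passed the adult filter only through the samples labelled knockout. Col23a1, also of the 13, passed the day 7 filter only through the knockout samples. In 5 members the directions were opposite without overlap, or 17.9% of the 28 against 18.3% of all genes tested in both, a share near the background: Col16a1 and Col26a1 were higher at day 7 and lower in adult testis, and Col18a1, Col4a5 and Col5a3 were lower at day 7 and higher in adult testis. Of the 5, Col4a5, Col5a3 and Col26a1 passed the adult filter only through the group where they were higher. Col26a1 did so at day 7 too. In the other 10 the groups overlapped in at least 1 set, as for Col20a1 and Col14a1, which fell in adult testis and overlapped at day 7. The material differs (cultured cells against whole testis) and the tables were made separately, so age, tissue and culture cannot be told apart, and the difference between the sets was not tested.

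**Figure D5:**
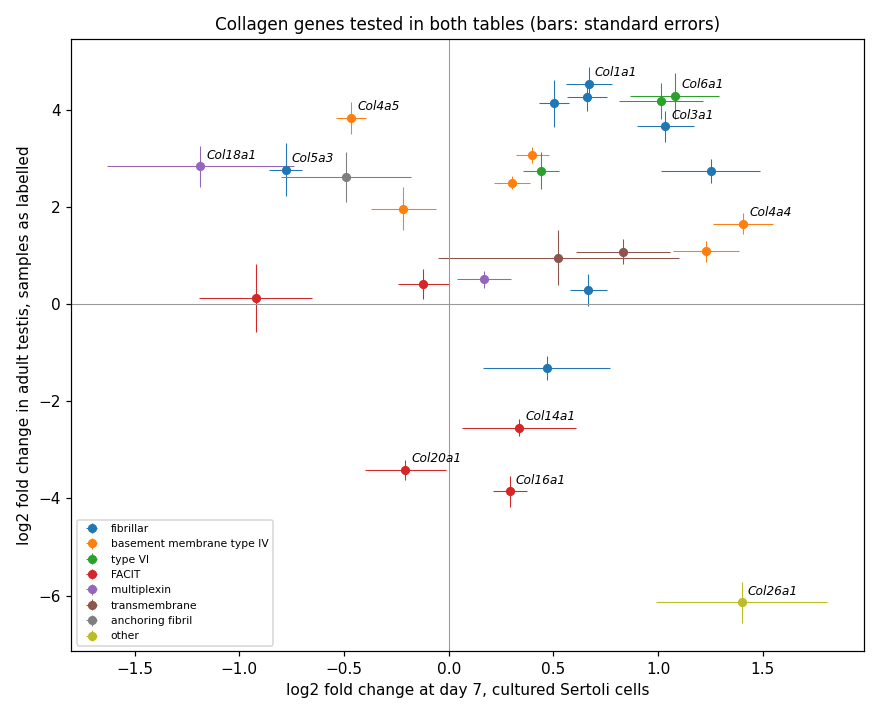
Log2 fold change at day 7 (x axis, cultured Sertoli cells) against that in adult testis (y axis, samples as labelled) for the 28 collagen genes tested in both, coloured by class, with bars for the standard errors. Most fibrillar, type IV and type VI genes lie at upper right, and the opposite members Col16a1, Col26a1, Col18a1, Col4a5 and Col5a3 lie at lower right and upper left.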

How the data were processed

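Collagen genes were analysed in 10 RNA-seq libraries, 4 of cultured Sertoli cells at day 7 and 6 of adult testis. Per the labels and the study's methods, RNA was selected with oligo(dT) and sequenced on a BGISEQ instrument, and the submitters' processing notes name HISAT and Bowtie2, whose versions are not given in the sources used here. The authors deposited estimated counts from RSEM for each gene, and FPKM and TPM values beside them. The deposited FPKM values are scaled by library size and transcript length, and the TPM values were not used here. The adult table has 20 further empty columns, which were not used.

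Estimated counts were rounded and tested with edgeR 4.0.16 in R 4.3.3 (quasi-likelihood test, TMM scaling, Benjamini-Hochberg over all genes tested) on each table alone, for genes reaching an FPKM of 0.5 in 2 samples at day 7 or 3 in adult testis. The SE was taken from the fold change and the F statistic. Overlap of groups was judged on TMM-scaled counts. DESeq2 1.42.0, limma 3.58.1 on log2(FPKM + 0.1) or log2(FPKM + 1), other scalings and filters, a replicate block and leaving out each sample were the alternatives. The script was tested on simulated data. Figures used matplotlib 3.10.9, and promoter windows came from RefSeq.

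The members and lists were chosen with earlier results of these data known. Values in every sample were given for the 10 members highest in FPKM, the 5 largest rises and falls without overlap, chains that join them, up to 4 high members of each list and any called against its list's direction. Some further members are named to account for each class, and those were chosen after their values were seen. Itga1 at day 7, among the receptors lowest in FPKM, was also given outside this rule.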

Additional observations from a re-analysis of the deposited data

Results flagged for a closer look

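In 5 collagen genes every knockout sample lay on one side of its controls at day 7 and every sample labelled knockout lay on the other side in adult testis, and the difference between the sets was not tested. These are 17.9% of the 28 members tested in both sets, against 18.3% of all genes, so the count is near the background. Col16a1 had a log2 fold change of 0.29 at day 7 and -3.85 in adult testis. For Col26a1 these values were 1.40 and -6.14. For Col18a1 they were -1.19 and 2.84, for Col4a5 -0.47 and 3.84, and for Col5a3 -0.78 and 2.76. By edgeR's quasi-likelihood test their adjusted p at day 7 ran from 0.119 to 0.320, above the threshold, and all 5 were called in adult testis. In adult testis Col4a5 and Col5a3 passed the filter only through the samples labelled knockout, and Col26a1 only through those labelled WT. At day 7 Col26a1 passed it only through the knockout samples.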

How the results depend on the processing

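At day 7 the count of collagen genes called was 0 with edgeR and 15 with DESeq2, and that of genes of the 7 collagen synthesis, receptor and basement membrane lists 0 and 12, against 0% and 4.51% of all genes. Leaving out each sample in turn gave 0 to 24 collagen genes and 0 to 34 genes of those lists. Without the first knockout sample 21 and 30 were called, against 21.4% of all genes, and without the second 24 and 34, against 39.9%. In adult testis the 4 list genes called lower became 2 with a mean FPKM of at least 1 as the filter. Rnf20 in adult testis changed sign with median-ratio scaling and with DESeq2 (-0.075 in each). With log2(FPKM + 1) the adult ratio of Col1a1 to Col1a2 became -0.53 and that of Col3a1 to Col1a1 0.048. Leaving out each sample moved Col1a1 to Col1a2 at day 7 between -0.030 and 0.042, Col4a3 to Col4a4 at day 7 between -0.56 and 0.17, and Col6a1 to Col6a2 in adult testis between -0.14 and 0.31. The cause was not tested. The replicate numbers did not pair the samples (correlation of same-numbered deviations 0.032 at day 7 and 0.0062 to 0.027 in adult testis), and with the replicate block 0 collagen genes were called at day 7 (0% of all genes) and 22 higher and 9 lower in adult testis (38.1% and 38.6% of all genes). With 2 or 3 samples a group, no chain ratio could reach 0.05, and members with few counts, such as Col26a1 and Col9a1, are known only roughly.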
